A study of Mus musculus with 16 samples.

Results

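Border-associated macrophages are the resident macrophages of the meninges, the perivascular spaces and the choroid plexus. They take up proteins and debris at the borders of the brain and share many genes with the microglia of the parenchyma, and they are usually told apart by scavenger and lectin receptors that microglia hold at low levels. The 9 genes described here, Mrc1, Cd163, Lyve1, Pf4, F13a1, Cbr2, Ms4a7, Siglec1 and Stab1, were listed by name as such markers, out of 57010 genes in the count table. The rule used no measured value, but the list was drawn up with earlier results of these data known. All 9 passed the filter on low counts (5 counts or more in 8 or more of 16 libraries), as did 18227 genes in all.

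RNA was sequenced from microglia of the olfactory bulb of WT (C57BL/6J) and APP-NL-G-F animals, which were 2 months old. APP-NL-G-F is a knock-in of a humanised App gene with the Swedish, Arctic and Iberian changes, so every cell that uses the App promoter carries it and the change is not limited to microglia. Each genotype held 4 female and 4 male libraries, and the comparison asks what differs in these cells at the age when noradrenergic axons begin to be lost from the bulb. Cells were pulled out with beads against CD11b, a surface integrin of all myeloid cells, so border macrophages can be carried along with microglia. The libraries held 9052932 to 18117286 counts. Nothing in the labels states that each library came from a separate mouse, and p-values measure the spread between these libraries. In bulk RNA, fewer cells of a type and less RNA per cell cannot be told apart. Xist and Ddx3y matched the labelled sex in all 16 libraries.

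Promoter sequences, 250 bases before to 50 bases after the start, are shown for 5 of the genes that rose and fell together across libraries (see the correlations further on). They come from RefSeq, build GRCm38.p6. In the set of promoter sequences used here 7 of the 9 genes matched by name, and Lyve1 and Siglec1 did not. Capitals mark GAGGAA (or TTCCTC on the other strand), a core of the motif of PU.1, the factor that macrophages and microglia need to form, and TGCTGA (or TCAGCA), the half-site of the MAF factors.
Mrc1 (chr2:14229164-14229463, plus strand): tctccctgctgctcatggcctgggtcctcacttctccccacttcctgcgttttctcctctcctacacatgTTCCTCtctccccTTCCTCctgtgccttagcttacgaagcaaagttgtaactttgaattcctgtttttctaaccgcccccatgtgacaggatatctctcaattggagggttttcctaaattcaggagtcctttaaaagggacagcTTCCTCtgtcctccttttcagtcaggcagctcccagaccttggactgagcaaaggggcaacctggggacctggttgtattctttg
Cd163 (chr6:124304401-124304700, plus strand): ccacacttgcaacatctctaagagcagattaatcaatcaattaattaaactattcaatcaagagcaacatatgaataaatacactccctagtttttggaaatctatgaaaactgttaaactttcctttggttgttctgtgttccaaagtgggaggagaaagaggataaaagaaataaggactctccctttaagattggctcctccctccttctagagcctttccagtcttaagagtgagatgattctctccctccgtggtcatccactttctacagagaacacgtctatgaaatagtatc
Pf4 (chr5:90772185-90772484, plus strand): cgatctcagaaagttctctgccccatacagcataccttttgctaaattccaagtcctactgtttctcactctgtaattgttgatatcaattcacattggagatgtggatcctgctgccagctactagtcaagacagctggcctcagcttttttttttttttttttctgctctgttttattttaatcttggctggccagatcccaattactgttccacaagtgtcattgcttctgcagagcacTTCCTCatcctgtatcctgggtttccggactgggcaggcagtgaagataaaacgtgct
F13a1 (chr13:37050195-37050494, minus strand): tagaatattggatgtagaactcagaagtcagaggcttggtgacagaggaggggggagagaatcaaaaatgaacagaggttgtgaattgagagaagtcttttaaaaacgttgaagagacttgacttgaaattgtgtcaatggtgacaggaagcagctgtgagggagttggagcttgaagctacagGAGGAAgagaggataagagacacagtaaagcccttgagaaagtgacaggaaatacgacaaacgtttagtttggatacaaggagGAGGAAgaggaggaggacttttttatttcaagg
Cbr2 (chr11:120731972-120732271, minus strand): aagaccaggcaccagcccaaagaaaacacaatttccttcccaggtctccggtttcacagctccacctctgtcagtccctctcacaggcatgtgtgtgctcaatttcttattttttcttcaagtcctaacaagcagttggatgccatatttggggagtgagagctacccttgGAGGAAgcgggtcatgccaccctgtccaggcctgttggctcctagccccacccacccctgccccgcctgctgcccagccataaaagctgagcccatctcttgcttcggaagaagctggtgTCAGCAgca
GAGGAA stood in 7 of the 9 promoter windows listed for these genes (F13a1 and Ms4a7 have more than 1 start) and in 28.3% of all 32851 windows of this length. TGCTGA stood in 2 of 9, those of Cbr2 and Stab1, and in 19.5% of all windows. The search covered both strands, and a match is a description of letters, not a binding site.

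Read against exon length, the genes covered a wide range of levels (CPM, a gene's counts divided by the library total and scaled up to the same total for each library, per kilobase of exon, mean over 16 libraries). Stab1, a scavenger receptor that clears modified lipoproteins and matrix fragments, stood at 75.8, and Mrc1, the mannose receptor CD206, at 44.0. The ranges of Stab1 and Mrc1 did not overlap each other or those of the other 7. F13a1, the A chain of coagulation factor XIII, stood at 15.8, Cd163, the receptor for haemoglobin and haptoglobin complexes, at 14.8, and Cbr2, a carbonyl reductase, at 13.8, and these 3 overlapped across libraries. Pf4, a CXC chemokine also stored in platelets, stood at 8.19. Lyve1, a receptor for hyaluronan, stood at 4.90, Siglec1, the sialic acid lectin CD169, at 4.12, and Ms4a7, a membrane protein of the MS4A family, at 2.95. The range of Pf4, from 5.78 to 10.8, overlapped those of F13a1, Cd163, Lyve1 and Siglec1. Lyve1 also overlapped Cd163 and Siglec1, and Siglec1 overlapped Ms4a7, so these levels formed no separate tiers.

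The level of microglial genes overlapped that of the 9 genes. Cx3cr1, the fractalkine receptor, was at 3177 CPM and P2ry12, the purinergic receptor of microglial processes, at 1589 CPM, whereas Mrc1 was at 344 ± 54.4 (SD, n = 16) and Cd163 at 82.3 ± 21.0. Others of the 14 microglial genes were lower than Stab1, such as Tmem119 at 622 CPM, and some were lower than Mrc1, such as Slc2a5 at 210, Sall3 at 138 and Crybb1 at 119 CPM. The defining markers of the labelled cell type were present in every library. In the list of 30 further border macrophage genes the transcription factor Maf was highest at 616 CPM, which microglia express too. Of the markers of other cells, Ppbp, Gp1ba, Gp1bb and Gp6 of platelets, which also hold Pf4 and F13a1, had at most 3 counts in any library, and Gp5 averaged 0.112 CPM. Others of the same list were present, with Itgb3 at 57.8 CPM, Gp9 at 7.49 CPM (63 to 143 counts a library), Itga2b at 1.25 CPM, Tubb1 at 1.05 CPM and Treml1 at 0.680 CPM, and their part in the levels of Pf4 and F13a1 was not tested. Ccl21a of lymphatic endothelium, which also carries Lyve1, had 0 counts in all 16 libraries, a count that allows up to 0.169 to 0.347 CPM depending on the library. Of the same list, Prox1 was at 25.01 CPM (199 to 495 counts a library), Pdpn at 1.39 CPM and Flt4 at 1.103 CPM. The mast cell protease gene Mcpt4 was at 0 counts in all libraries. Markers of blood vessel endothelium were present, with Slc2a1, the glucose transporter, highest at 42.3 CPM, as were Fn1 (monocyte list, 40.4 CPM), Rgs5 (pericytes and fibroblasts, 20.6 CPM), Gad1 (neurons, 109 CPM) and Slc1a3 (astrocytes and oligodendrocytes, 238 CPM). Lower lists were led by Il7r (lymphocytes, 17.4 CPM), Batf3 (dendritic cells, 9.01 CPM), S100a9 (neutrophils, 4.83 CPM), Hdc (mast cells, 1.73 CPM) and Hbb-bs (red blood cells, 0.407 CPM), and Reln led the lymphatic list at 73.6 CPM, a gene that bulb neurons also express.

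**Figure D1:**
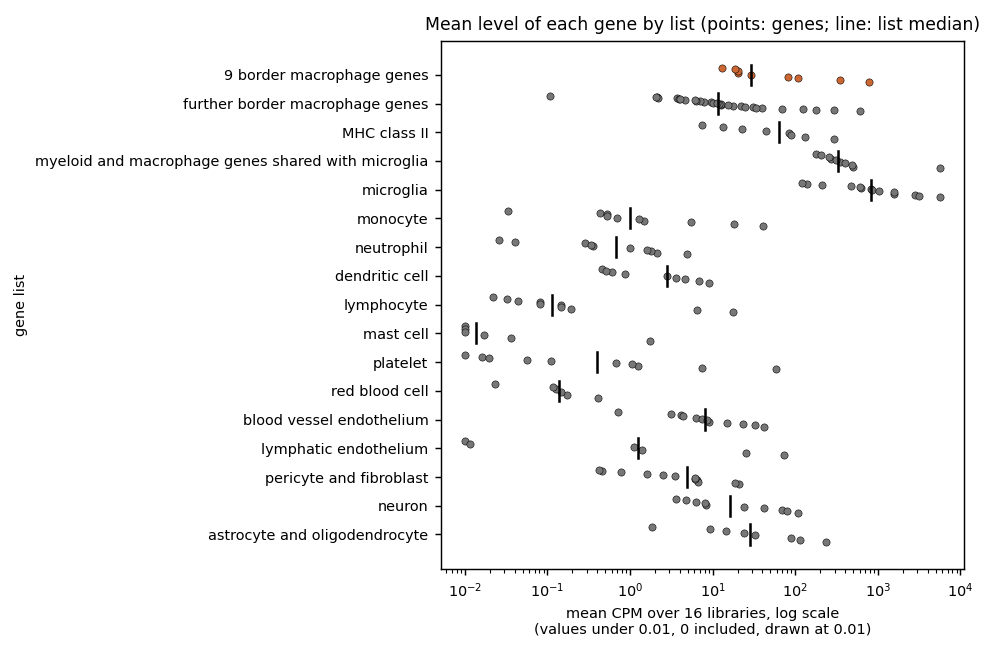
Mean CPM of each gene over the 16 libraries on a log axis, by gene list, with 1 point per gene and a line at the list median. The 9 border macrophage genes lie between 13.2 and 779 CPM, below the leading microglial genes and above nearly all platelet, mast cell, lymphocyte and red blood cell genes.

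The 2 genotypes were compared first. None of the 9 genes was called different between APP-NL-G-F and WT mice over both sexes, against 8.64% of all tested genes (edgeR quasi-likelihood test with sex as a covariate, Benjamini-Hochberg FDR below 0.1 and absolute log2 fold change above 0.5), and 1 of the 9, Siglec1, had an unadjusted p below 0.05, beside 24.1% of all tested genes. DESeq2 also called 0. The median log2 fold change of the 9 genes was 0.10, beside -0.00144 for all tested genes, and 7 of 9 were above 0. Without APP-NL-G-F male 2 or WT male 3 this was 5 of 9. Within library numbers 1 to 8 it was 4 of 9 (median -0.03), and within 9 to 16 it was 7 of 9 (median 0.28). In females 3 of 9 were above 0 (median -0.02) and in males 7 of 9 (median 0.22), but without WT female 1 the count in females was 7 of 9 (median 0.07), and without APP-NL-G-F male 2 that in males was 5 of 9 (median 0.05). The ranges of the genotypes overlapped for every gene.

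Siglec1 differed most. In WT females it was at 29.3, 24.9, 23.8 and 32.6 CPM and in APP-NL-G-F females at 25.5, 49.2, 28.0 and 40.3 CPM. In WT males it was at 21.5, 32.7, 21.3 and 20.01 CPM and in APP-NL-G-F males at 20.2, 27.9, 39.2 and 34.5 CPM. In each sex 2 of the 4 APP-NL-G-F libraries stood above every WT library and the rest lay among them. The log2 fold change was 0.35 (SE 0.150, 95% interval 0.04 to 0.67) with an unadjusted p of 0.0302 and an edgeR FDR of 0.154, and an exact two-sided permutation of genotype within sex gave p = 0.0771. Leaving out WT male 2, APP-NL-G-F female 1 or APP-NL-G-F male 1 brought the FDR to 0.0786, 0.0910 and 0.0888, still with a log2 fold change under 0.5, so the gene was not called.

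The other receptors were not called either. Mrc1 ran from 254 to 401 CPM in WT libraries (median 324) and from 303 to 491 CPM in APP-NL-G-F libraries (median 341). Its log2 fold change was 0.13 (SE 0.0967, 95% interval -0.08 to 0.33, edgeR FDR 0.471). Cd163 ran from 43.9 to 117 CPM in WT libraries (median 81.4) and from 68.0 to 117 CPM in APP-NL-G-F libraries (median 78.4). The estimate for Cd163 was 0.02 (SE 0.172, interval -0.34 to 0.37, FDR 0.976). WT males 3 and 4 were the lowest libraries for Cd163, and the highest of each genotype lay together. Without APP-NL-G-F male 2 the estimate was -0.07 for Cd163 and -0.07 for Lyve1. Lyve1, with 0.05 (interval -0.28 to 0.39), and Stab1, with -0.05 (interval -0.15 to 0.04), also had intervals that held 0. Stab1 had the narrowest interval of the 9, from a fold of 0.902 to one of 1.03, while that of Cd163 ran from 0.788 to 1.30. A p that misses the threshold does not show equal levels.

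The secreted and enzymatic members were not called. Pf4 had a log2 fold change of 0.14 (interval -0.08 to 0.37, and -0.03 within library numbers 1 to 8), F13a1 of 0.16 (interval -0.09 to 0.41) and Cbr2 of 0.10 (interval -0.14 to 0.33). Ms4a7 was the lowest at -0.10 (interval -0.32 to 0.12). None passed the FDR threshold.

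**Figure D2:**
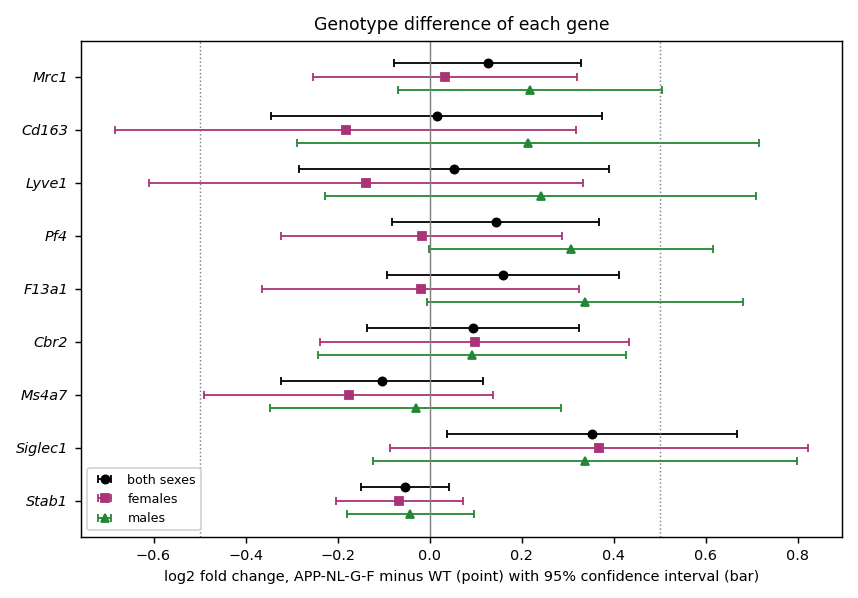
Log2 fold change of each gene, APP-NL-G-F minus WT, with its 95% confidence interval, over both sexes (circles), in females (squares) and in males (triangles), where dotted lines mark the threshold of 0.5. Of the intervals over both sexes only that of Siglec1 lies above 0, from 0.04 to 0.67.

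Within females 0 of the 9 genes were called, against 7.15% of all genes, and 0 had an unadjusted p below 0.05, beside 20.8% of all. Within males 0 were called against 0.252%, again with 0 at an unadjusted p below 0.05, beside 11.7% of all, and DESeq2 called 0 in each sex. F13a1 in WT males was at 133, 110, 83.7 and 66.9 CPM and in APP-NL-G-F males at 111, 164, 114 and 110 CPM. Pf4 in WT males was at 21.5, 20.4, 14.2 and 14.4 CPM and in APP-NL-G-F males at 17.9, 26.6, 24.0 and 19.7 CPM. For both genes the male groups overlapped, with WT males 3 and 4 lowest and APP-NL-G-F male 2 highest. Their log2 fold changes in males were 0.34 (interval -0.01 to 0.68, edgeR FDR 0.440) and 0.31 (interval -0.000646 to 0.62, edgeR FDR 0.429), and in females -0.02 for each. The difference between the sexes was tested itself, and the genotype by sex interaction called 0 of 9 genes against 0.0274% of all, with 0 at an unadjusted p below 0.05, beside 5.94% of all, and 0 by DESeq2. The F13a1 interaction was -0.36 (SE 0.231, FDR 0.945) and that of Cd163 -0.40 (SE 0.337, FDR 0.977).

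Sex gave no call either. Over both genotypes 0 of 9 genes differed between females and males, against 0.0604% of all genes, with 0 at an unadjusted p below 0.05, beside 6.56% of all, and 0 by DESeq2. The estimates, females minus males, ran from -0.21 for Lyve1 (interval -0.55 to 0.13) to 0.21 for Siglec1 (interval -0.10 to 0.53). In the same test all 5 genes of the sex list, Xist, Ddx3y, Uty, Kdm5d and Eif2s3y, were called.

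**Figure D3:**
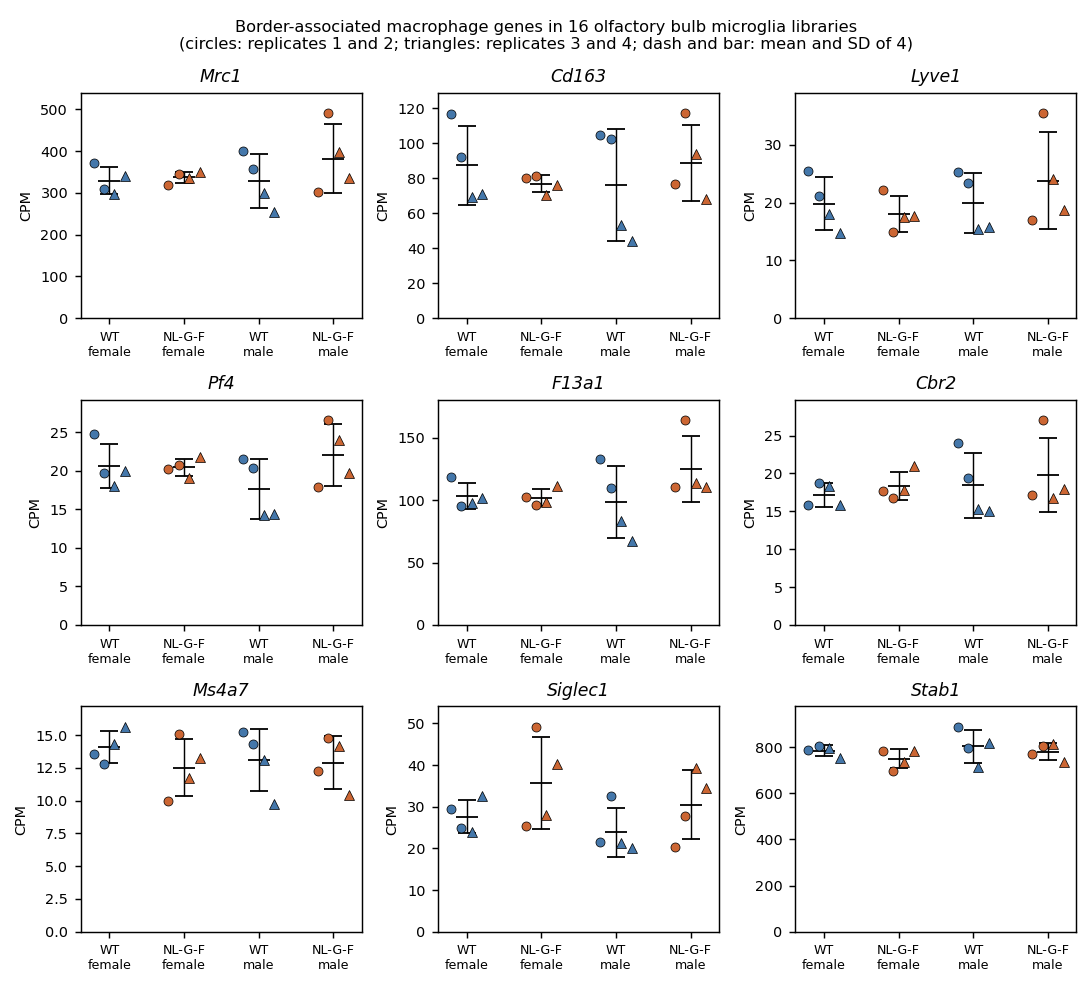
CPM of each gene in every library by sex and genotype, on axes that start at 0, with circles for replicates 1 and 2, triangles for replicates 3 and 4, and the mean and SD of 4 libraries. The genotypes overlap for every gene, and WT males 3 and 4 sit low for Cd163, Pf4 and F13a1.

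Genes of other cell types were called in the same comparisons. Of all tested genes 8.64% were called over both sexes, 7.15% in females and 0.252% in males. In the same order, 24.1%, 20.8% and 11.7% of all tested genes had an unadjusted p below 0.05. In females 8 of 12 blood vessel endothelium genes were called lower in APP-NL-G-F mice, among them Slc2a1 (log2 fold change -0.75, SE 0.128, edgeR FDR 0.00206), the tight junction gene Cldn5 (-0.95, FDR 0.0287) and the efflux pump gene Abcb1a (-1.28, FDR 0.00604), which in males was called higher (1.30, FDR 0.0905; interaction -2.58, FDR 0.0233). The other endothelial genes called lower were Flt1, Cdh5, Tek, Slco1a4 and Ly6c1. Of 10 tested pericyte and fibroblast genes 4 were called lower in females (Rgs5, Vtn, Slc6a13 and Igfbp2), as were Flt3 of the dendritic cell list and the astrocyte genes Gfap and Aqp4, while the neuronal genes Syt1 and Gad1 were called higher. The summed endothelial list was at 262, 304, 191 and 151 CPM in WT females and between 127 and 150 CPM in APP-NL-G-F females. In males it went the other way, from 105 to 123 CPM in WT and from 127 to 171 CPM in APP-NL-G-F libraries, with no overlap, and 12 of 12 genes had a log2 fold change above 0 (median 0.79), 9 of them at an unadjusted p below 0.05 and 1, Abcb1a, called. Over both sexes the oligodendrocyte gene Mog was called higher (0.77, edgeR FDR 0.0335). What part these cells had in the values of the 9 genes was not tested. Of the 29 tested further border macrophage genes 0 were called over both sexes (6 at an unadjusted p below 0.05, median 0.04), and the same held for the 8 MHC class II genes (0 at an unadjusted p below 0.05, median -0.13) and the 14 microglial genes (2 at an unadjusted p below 0.05, median 0.02). The 15 tested scavenger receptor and haem iron genes were led by the lipoprotein receptor Lrp1 at 2440 CPM. Of these 0 were called, but 2 had an edgeR FDR below 0.1 and 3 an unadjusted p below 0.05 (median -0.03). Of 10 myeloid genes shared with microglia, led by Csf1r at 5665 CPM, 0 were called (1 at an unadjusted p below 0.05, median -0.07). MHC class II was led by Cd74, the invariant chain, at 295 CPM. Of the 10 neuronal genes 0 passed the fold threshold over both sexes, but 4 had an edgeR FDR below 0.1, 6 had an unadjusted p below 0.05 and 9 had a log2 fold change above 0 (median 0.35). Snap25, a protein of synaptic vesicle fusion, was at 0.38 (edgeR FDR 0.00512) and Syt1, the vesicle calcium sensor, at 0.43 (FDR 0.00796). The summed neuronal list ran from 255 to 331 CPM in WT females and from 353 to 467 CPM in APP-NL-G-F females, with no overlap, and from 258 to 368 CPM in WT males and 315 to 465 CPM in APP-NL-G-F males, with overlap. No tested gene of the monocyte, neutrophil, dendritic cell, lymphocyte, mast cell, platelet, lymphatic, blood vessel or pericyte and fibroblast lists was called over both sexes, and none of these lists had more than 1 gene at an unadjusted p below 0.05.

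Levels varied from library to library. The coefficient of variation over 16 libraries was 25.5% for Cd163, 26.9% for Lyve1, 28.1% for Siglec1 and 19.9% for F13a1, beside a median of 8.90% for the 8731 genes with a mean of at least 10 CPM. Stab1 varied least, by 5.97%. APP-NL-G-F male 2 was the highest library for 6 of the 9 genes, and WT male 4 was the lowest for 6. WT males 3 and 4 were among the lowest 4 libraries for 8 genes each.

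**Figure D4:**
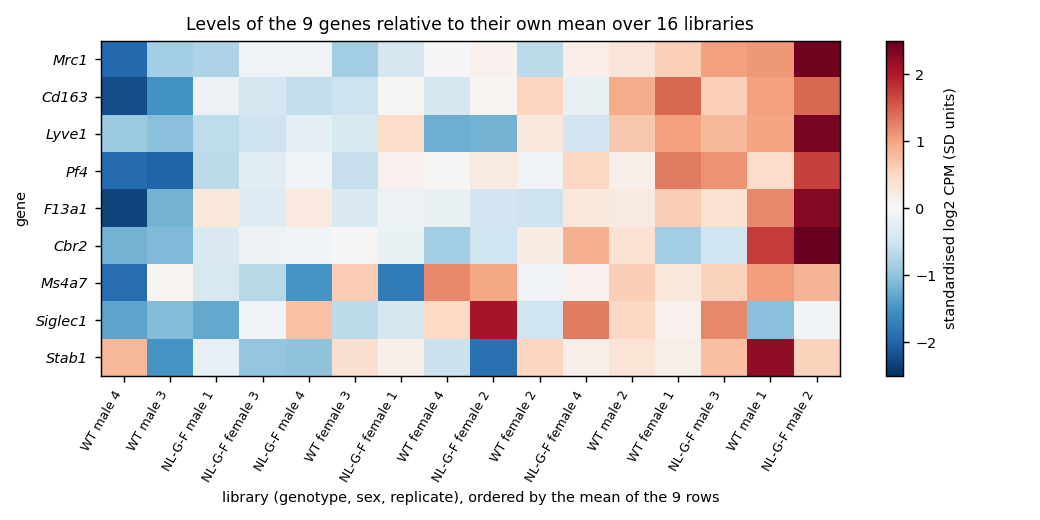
Standardised log2 CPM of the 9 genes (rows) in 16 libraries (columns), ordered by the column mean, from low (blue) to high (red). WT males 4 and 3 stand at the low end and APP-NL-G-F male 2 at the high end, and Siglec1 is highest in APP-NL-G-F female 2 and Stab1 in WT male 1.

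Levels of 6 of the genes rose and fell together. Over 16 libraries the 15 pairs among Mrc1, Cd163, Lyve1, Pf4, F13a1 and Cbr2 had a Pearson r of 0.56 to 0.91 (median 0.78), and the 21 other pairs -0.38 to 0.60 (median 0.33). This grouping was made after the values were seen, and all genes share the same libraries and depths. Each pair was also taken without 2 libraries, those farthest from the median of its first gene in the listed order. The libraries left out thus differed between first genes. The 15 pairs then had r of 0.35 to 0.81 (median 0.65). With the means of the 4 groups taken out, r was 0.63 to 0.93 (median 0.83) for the 15 pairs and -0.21 to 0.71 (median 0.45) for the others, so that the ranges overlapped, as with Mrc1 and Ms4a7 at 0.71. The mean level of the 9 genes correlated with log2 total count at r = 0.38 (Spearman 0.33). With 2 libraries left out in that way, the 21 other pairs had r of -0.17 to 0.70 (median 0.31). Stab1 had r of 0.60 with Lyve1, within the range of the 15 pairs. With 2 libraries left out in that way, Stab1 had 0.70 with Lyve1, 0.70 with F13a1 and 0.65 with Cd163. Between Siglec1 and Stab1 r was -0.38, but -0.17 without the 2 libraries farthest from the Siglec1 median and -0.21 with the group means taken out.

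**Figure D5:**
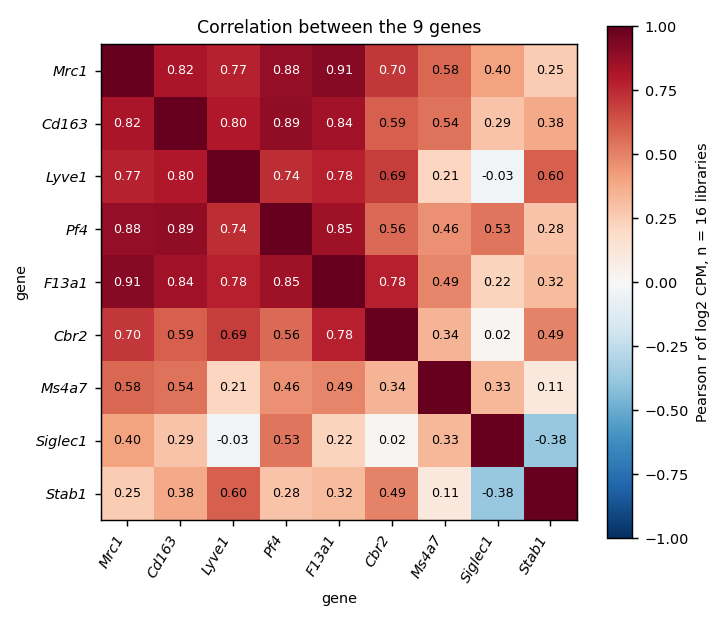
Pearson r of log2 CPM between each pair of the 9 genes over 16 libraries. Mrc1, Cd163, Lyve1, Pf4, F13a1 and Cbr2 form a block of 0.56 to 0.91. The lowest value, -0.38 between Siglec1 and Stab1, was -0.17 without the 2 libraries farthest from the Siglec1 median.

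The 10 genes most like the mean of the 9, by Pearson r of log2 CPM over 16 libraries, were Gpx3 (0.90), Chp2 (0.87), Dab2 (0.87), Ap2a2 (0.85), Clec4n (0.81), Cd36 (0.81), Acat3 (0.80), Tlr8 (0.79), Smagp (0.79) and Iqgap2 (0.78), beside a median of -0.01 for 18218 genes. Of these, Dab2, an endocytic adaptor, Clec4n, the lectin dectin-2, and Cd36, a fatty acid and lipoprotein receptor, were in the list of further border macrophage genes. Acat3, at 0.740 CPM, was the lowest in level. Of the 29 tested further border macrophage genes, 16 had r above 0.5 with the mean of the 9. Maf had 0.12, and Ms4a6d was lowest at -0.09. The mean of the 29 followed the 9 genes at r = 0.88 (0.84 without APP-NL-G-F male 2 and WT male 4). The scavenger receptor and haem iron list had r of 0.40 (0.62 without those libraries), MHC class II 0.26 (0.41), the microglial list 0.20 (0.38) and the myeloid genes shared with microglia 0.10 (0.40). Among the other cell types, the neuronal list had r of -0.13 (-0.55 without those libraries), the 5 tested neutrophil genes 0.29 (0.52), the 1 tested mast cell gene 0.30 (0.59), platelets -0.42 (-0.30) and blood vessel endothelium 0.15 (-0.09). The remaining lists, those of monocytes, dendritic cells, lymphocytes, lymphatic endothelium, pericytes and fibroblasts, and astrocytes and oligodendrocytes, ran from -0.02 to 0.24 (-0.23 to 0.29). Taken singly, Ms4a7 had r of 0.64 with MHC class II and 0.64 with the further border macrophage list, and Siglec1 0.58 and 0.57. Stab1 had -0.06 and 0.21. With the microglial list r was -0.12 for Ms4a7, -0.07 for Siglec1 and 0.39 for Stab1. The highest r of Stab1 with any list was 0.66, with the 5 tested neutrophil genes. In these libraries the summed microglial list ran from 17913 to 21472 CPM, and APP-NL-G-F male 2, highest for the 9 genes at 1709 CPM summed, was at 19568.

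Replicate numbers divided the libraries as well. Replicates 1 and 2 were library numbers 1 to 8 and replicates 3 and 4 were 9 to 16 in every group, and the labels do not say what the numbers stand for. This comparison was added after the data were seen. Cd163 in replicates 1 and 2 ran from 76.5 to 117 CPM and in replicates 3 and 4 from 43.9 to 93.6 CPM, lower on average in every group. The difference was a log2 fold change of -0.50 (SE 0.130, edgeR FDR 0.0613), and 1 of 9 genes was called against 0.730% of all. Lyve1 had -0.38 (edgeR FDR 0.183), F13a1 -0.24 (edgeR FDR 0.286) and Siglec1 0.04 (edgeR FDR 0.945). Of all list genes outside the 9, Tubb1, a platelet tubulin at 1.05 CPM, was the one called, at 1.09 (edgeR FDR 0.0421), and its part in the difference was not tested. The call of Cd163 was lost when WT male 1, 2, 3 or 4, WT female 1, APP-NL-G-F male 2 or APP-NL-G-F male 4 was left out, with log2 fold changes of -0.50 to -0.41. Over 21 alternatives the FDR of this Cd163 difference was below 0.1 in 20, and its highest value was 0.103. Within library numbers 1 to 8 the genotype difference of Cd163 was -0.25 (SE 0.121, edgeR FDR 0.213), and within 9 to 16 it was 0.40 (SE 0.138, edgeR FDR 0.404). For Siglec1 the values were 0.13 (FDR 0.760) and 0.56 (FDR 0.237). No gene of the 9 was called within either set.

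By position in GRCm39, the counted genes lie apart on 8 chromosomes, with Mrc1 at chr2:14234151-14336926 on the plus strand and Siglec1 at chr2:130911140-130928685 on the minus strand. Stab1, at chr14:30860970-30890598 on the minus strand, overlaps Nt5dc2 on the other strand, which was at 12.98 CPM. Reads of the pair could not be told apart if the counting ignored strand, which is not given in the sources used here. Stab1 was at 779 CPM, and the part of Nt5dc2 reads in that value was not tested. Mir511, inside Mrc1 on the same strand, was at 0.0515 CPM.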

How the data were processed

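Microglia RNA from 16 olfactory bulb libraries was measured as read counts per gene. The deposited counts are whole numbers that the authors made with STAR on a customised GRCm39 genome; the strand setting is not given in the sources used here. No column was left unmapped. The filter kept genes that reached 5 counts in 8 or more libraries (18227 of 57010, 99.9% of counts), which were normalised by TMM and tested with edgeR 4.0.16 (default quasi-likelihood fit) in R 4.3.3, with sex as a covariate, or as 4 groups for the comparisons within sex and the interaction. Calls needed a Benjamini-Hochberg FDR below 0.1 over all tested genes and an absolute log2 fold change above 0.5. CPM used TMM factors, and log2 CPM a prior count of 2. Exon lengths and positions came from gencode vM39. The 95% intervals come from the SE of the quasi-likelihood fit and so include the spread between libraries. Floors of 3 counts cover counting error only. Named genes were all 9 members, list genes called, the most abundant gene of each list and those at 0, and the 10 genes most correlated with the members; 1 gene that this rule names is not reported here. Members and lists were chosen with earlier results of these data known. The fitting code was tested on simulated data. Alternatives were RLE, DESeq2 1.42.0, no filter, a replicate block, a library number term, scaling to microglial genes and leaving out each library. Fits with the bias-adjusted quasi-likelihood, library numbers 1 to 8 or 9 to 16 alone and the comparison of replicate numbers were chosen after seeing the data.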

Additional observations from a re-analysis of the deposited data

Results flagged for a closer look

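Of 112 groups of 4 libraries checked for a library far from the other 3, 6 were picked out, beside 5.6 expected by chance, since chance picks about 1 in 20. For F13a1, APP-NL-G-F male 2 was at 164 CPM with the other 3 between 110 and 114 (gap over range 0.940). For Cbr2 the same library was at 27.1 CPM with the others between 16.8 and 18.0 (0.883). For Siglec1, WT male 2 was at 32.7 CPM with the others between 20.01 and 21.5 (0.882). The summed lymphocyte list was lowest in APP-NL-G-F female 4, at 21.8 CPM beside 25.8 to 26.6 (0.847). The summed red blood cell list was highest in WT male 1, at 3.51 CPM beside 0.102 to 0.672 (0.833). The summed lymphatic endothelium list was lowest in APP-NL-G-F male 2, at 66.4 CPM beside 98.1 to 102 (0.892).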

How the results depend on the processing

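None of the 9 genes was called for genotype, sex or their interaction in any of 122 alternative values. That count says little for the fit without a filter on low counts: there edgeR's default estimator gave 75.2 prior degrees of freedom in the additive fit and an infinite number in the fit of groups, beside 5.52 and 5.76 with the filter, so each gene's own spread was largely or wholly replaced by the trend. In that fit Siglec1 passed the FDR over both sexes (0.00950) and in each sex, and F13a1 passed it in males, all under a log2 fold change of 0.5, and genes called were 2136 in females, 880 in males, 470 for the interaction and 57 for sex. With the bias-adjusted estimator and no filter, prior degrees of freedom were 22.3 and 25.4, the Siglec1 FDR was 0.108, and 361 genes were called in males and 122 for the interaction; with that estimator and the filter, 94 were called in males. DESeq2 called 276 genes in males and 81 for the interaction, the library number term 141 in males, and scaling to microglial genes 12 in males and 3 for the interaction. The cause of these shifts was not tested.

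Replicate numbers did not pair libraries (correlations of same-numbered deviations from -0.33 to 0.13), and the replicate block called 0 of the 9 genes and 3 genes for the interaction. Leaving out each library gave 594 to 2110 genes in females, 5 to 603 in males, 1 to 43 for the interaction and 5 to 9 for sex. For the replicate number comparison it gave 0 to 1 of the 9 genes, and scaling to microglial genes gave 0, with Cd163 at -0.42.

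Signs of small estimates turned. Within library numbers 1 to 8, the genotype estimate was -0.25 for Cd163, -0.12 for Lyve1 and -0.030 for Pf4. The sex estimate of Cd163 was 0.0232 with the replicate block, 0.0164 with the library number term and 0.0358 with microglial scaling. Over the left-out libraries the genotype estimates ran from -0.0799 to 0.12 for Cd163 and -0.0712 to 0.14 for Lyve1. In females they ran from -0.26 to 0.00909 for Cd163, -0.24 to 0.0272 for Lyve1, -0.0650 to 0.10 for Pf4 and -0.0489 to 0.0665 for F13a1. In males they ran from -0.0134 to 0.37 for Lyve1, -0.0933 to 0.24 for Cbr2, -0.15 to 0.0533 for Ms4a7 and -0.0997 to 0.00986 for Stab1. Sex estimates ran from -0.11 to 0.0778 for Cd163, -0.00802 to 0.11 for Pf4 and -0.0305 to 0.0777 for Ms4a7.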
